A study of Mus musculus with 3 samples.

Results

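The 10 genes described here encode carriers of monocarboxylates, dicarboxylates and citrate: 6 of the Slc16 family (Slc16a1, Slc16a7, Slc16a5, Slc16a12, Slc16a10 and Slc16a13), 3 of the Slc13 family (Slc13a2, Slc13a3 and Slc13a5) and Slc25a1, the mitochondrial citrate carrier. They were the rows with these symbols, 10 of the 41799 genes in each table. RNA sequencing was done on liver of male C57BL/6 mice aged 14 weeks, with 1 library for each of 3 groups. The first group ate regular chow, the second a high-fat diet, and the third the same high-fat diet with DfCS-Ib by gavage at 40 mg/kg, dissolved in 0.3 ml of water. DfCS-Ib is a code name for what the series calls a sulfated oligosaccharide. Groups held 8 mice, and how many of them gave RNA to a library is not stated in the labels. No group has a second library, so no difference has a replicate check, no p-value was computed, and each comparison describes the libraries and not the conditions. The genes were chosen by family with earlier results of these libraries known, so counts over them are a description.

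The Slc16 family holds the monocarboxylate transporters. MCT1 (Slc16a1) and MCT2 (Slc16a7) move lactate, pyruvate and ketone bodies together with a proton and need a partner glycoprotein to reach the cell surface, whereas other members carry different cargo, such as aromatic amino acids and thyroid hormone for Slc16a10 or creatine for Slc16a12. The Slc13 family couples uptake of di- and tricarboxylates to sodium: Slc13a2 and Slc13a3 are dicarboxylate transporters best known from kidney, and Slc13a5 brings citrate from blood into liver cells. Slc25a1 exports citrate from the mitochondrion, where it is made, to the cytosol, where it is split to acetyl-CoA for the synthesis of fatty acids and cholesterol.

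The libraries held 10969699 to 12279537 counts. Levels are given as CPM, counts relative to the library total after scaling of the libraries to one another with TMM factors, and levels of different genes are compared only as the authors' RPKM, which divides by gene length. The fold between a pair of libraries is the ratio of their scaled counts, and the range in parentheses is its 95% exact (Clopper-Pearson) interval from the split of the counts. Ranges after a level are 95% exact Poisson intervals. All of these cover counting error only. Where 3 values follow one another, they are for chow, high-fat diet and DfCS-Ib, in that order. Hepatocyte markers summed to 141121, 115569 and 125384 CPM, with all 7 of them measured. Alb alone gave 112771, 85030 and 93946 CPM of these sums. Between the high-fat and chow libraries the median log2 ratio of the 7 was -0.02, and 3 of them were higher with high-fat diet. Of 7 kidney tubule markers, 5 had no count in any library, and the list summed to 0.929, 1.71 and 1.03 CPM. Muscle, adipocyte and exocrine pancreas markers summed to at most 13.2 CPM in any library. The sums ran from 210.5 to 232 CPM for endothelium, 247 to 359 for stellate cells, 40.9 to 54.4 for cholangiocytes, 9.94 to 21.7 for lymphocytes and 79.5 to 140.04 for erythroid cells.

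Of the 10 genes, 8 had counts, and 7 reached a mean of 1 CPM over the 3 libraries, the level set for a gene to be counted. Slc16a5 had by far the widest span, high in chow, low in the high-fat library and between them with DfCS-Ib, and Slc16a10 had the same low point at a smaller scale. Slc16a12 was highest in the high-fat library, Slc13a3 was higher in both libraries of mice on the high-fat diet, Slc13a2 was lower in both, and Slc16a1 and Slc16a7 differed little. A gene was counted as different where the log2 ratio of CPM plus 1 was at least 1 in size, that is 2-fold. Between the high-fat and chow libraries 1 of the 7 was counted higher (Slc13a3) and 1 lower (Slc16a5), where 3.47% and 2.27% of all 13153 genes tested were. Between DfCS-Ib and the high-fat library 2 were counted higher (Slc16a5 and Slc16a10) and 0 lower, against 2.46% and 2.02% of all genes. Between DfCS-Ib and chow 1 was counted higher (Slc13a3) and 1 lower (Slc13a2), against 1.62% and 0.433%. The median log2 ratio of the 7 was -0.35, 0.21 and 0.01 in these comparisons, and that of all genes tested 0.02, -0.01 and 0.00. The members were chosen with these comparisons known, so nothing is read from these counts, and the comparisons share libraries. Just inside 2-fold lay Slc13a3 with high-fat diet against chow, at a log2 ratio of 1.07, and just outside lay Slc16a5 with DfCS-Ib against chow, at -0.98, and Slc13a2 with high-fat diet against chow, at -0.91. Of all genes past 2-fold, 60.5% were higher in the high-fat than in the chow library and 54.9% higher with DfCS-Ib than in the high-fat library. With the authors' RPKM in place of scaled counts those shares were 70.9% and 42.9%, and without TMM factors the second was 43.5%.

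**Figure D1:**
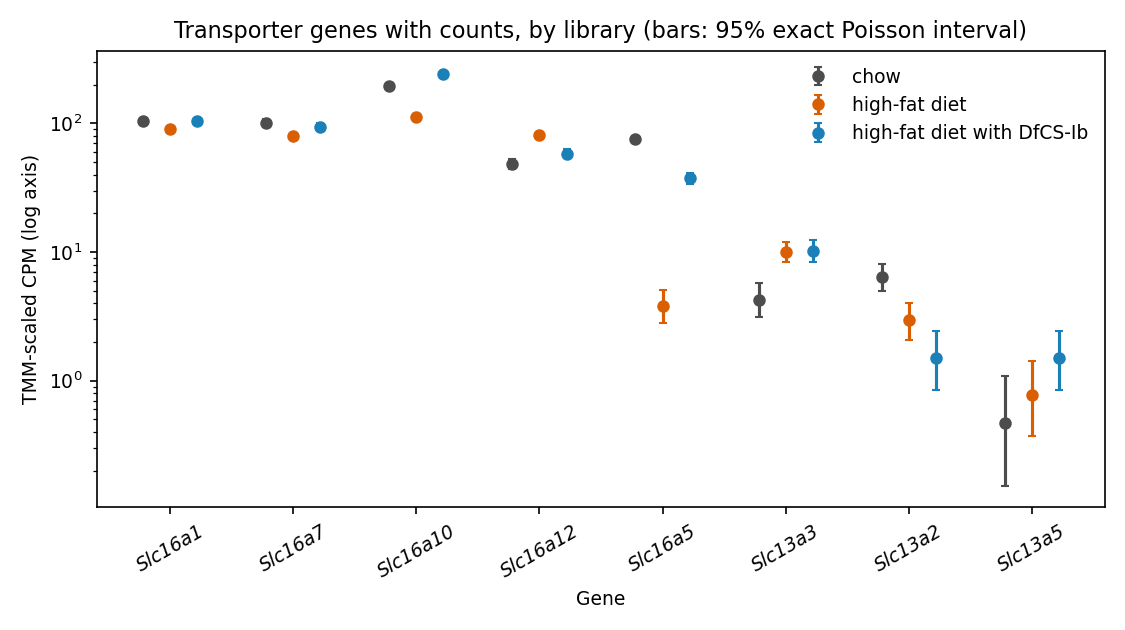
Level of the 8 genes with counts in each of the 3 libraries, in TMM-scaled CPM on a log axis, with points for libraries and bars for 95% exact Poisson intervals. Slc16a5 stands at 75.1, 3.81 and 37.5 CPM from chow to DfCS-Ib, while the points of Slc16a1 lie between 90.5 and 105 CPM.

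Sequence upstream of the transcript start is shown for the lactate carrier gene Slc16a1, whose level was nearly even, and for Slc16a10, which was lower with high-fat diet than with chow. Each is the 250 bases before the start used by the RefSeq promoter table, build GRCm38.p6, which has the chromosome coordinates of mm10, read 5′ to 3′ on the strand of the gene. They lie at chr3:104638414-104638663 on the plus strand and at chr10:40142255-40142504 on the minus strand. A gene can have other starts farther upstream: 16 bases of the Slc16a10 window lie within the RefSeq span of its gene, as do 165 of the window of Slc16a12, which is not shown, and 0 of that of Slc16a1. Capitals mark the motifs searched for on both strands: GCGTG, the core of the site of the aryl hydrocarbon receptor; CACGTG, the E-box; AGGTCA, a hexamer bound by nuclear receptors; and CCAAT, the NF-Y box. None of these 4 motifs lies within another, though their letters can overlap at the ends.
Slc16a1: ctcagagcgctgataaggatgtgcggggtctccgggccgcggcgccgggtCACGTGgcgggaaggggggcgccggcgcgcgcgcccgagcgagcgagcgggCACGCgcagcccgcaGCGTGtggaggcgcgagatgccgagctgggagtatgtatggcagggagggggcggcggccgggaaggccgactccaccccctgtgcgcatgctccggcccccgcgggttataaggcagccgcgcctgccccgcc
Slc16a10: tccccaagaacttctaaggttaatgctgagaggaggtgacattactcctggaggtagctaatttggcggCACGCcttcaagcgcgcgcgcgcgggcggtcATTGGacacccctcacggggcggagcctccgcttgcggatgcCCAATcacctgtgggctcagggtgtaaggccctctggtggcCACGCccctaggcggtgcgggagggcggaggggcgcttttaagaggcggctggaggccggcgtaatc
CACGTG occurred once each in the windows of Slc16a1, Slc16a12, Slc13a3 and Slc25a1, beginning 200, 240, 154 and 239 bases before the start. Of 32851 RefSeq windows of this length, 6.02% held it. GCGTG was found at 2 places in Slc16a1 (149 and 134 bases), 2 in Slc16a10 (181 and 67 bases) and 5 in Slc25a1, and in 28.2% of all windows. CCAAT was found at 2 places in Slc16a10 (150 and 108 bases) and at 1 each in Slc13a5 and Slc25a1, and in 33.8% of all windows. The Slc13a5 window that held it, chr11:72266605-72266854, lies with all 250 bases within the RefSeq span of the gene. Another Slc13a5 window, farther upstream, held none of the motifs. AGGTCA, present in 14.0% of all windows, was in none of the windows of the members, 7 of which were in the table. Slc16a5, Slc16a7 and Slc16a13 had no window there. These matches describe letters only. The window of Slc16a1 held 37 CpG pairs and that of Slc16a10 held 21, where the median over all windows was 6.

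Slc16a1, on chromosome 3, 104638664 to 104658462 of mm10, had 1119, 1164 and 1123 counts. Its level was 104 CPM (98.0 to 110.3) in chow, 90.5 (85.3 to 95.8) in the high-fat library and 105 (98.6 to 111) with DfCS-Ib. The chow and DfCS-Ib values lay within each other's counting intervals, a ratio of 1.01 (0.926 to 1.09), and the high-fat value was lower than chow by 1.15-fold (1.06 to 1.25). Slc16a7, on chromosome 10, 125219284 to 125389562, encodes a carrier of higher affinity for pyruvate and lactate. It measured 102, 79.6 and 94.2 CPM, lower in the high-fat library than in chow by 1.28-fold (1.17 to 1.39) and 0.928 times the chow level (0.851 to 1.01) with DfCS-Ib. With TMM scaling, both lactate carriers were lowest in the high-fat library by margins above counting error and far from 2-fold. The margins of both depended on that scaling. Without TMM factors the log2 ratio of Slc16a1 was -0.10 for high-fat diet against chow, where it was -0.20 with them. For DfCS-Ib against high-fat diet it was 0.11 without and 0.21 with them. The log2 ratios of Slc16a7 were -0.25 without and -0.35 with them in the first comparison, and 0.14 and 0.24 in the second. With the authors' RPKM the first ratio of Slc16a7 was -0.22, outside its counting interval. Counting intervals without TMM factors were not computed. Of their partner proteins, basigin (Bsg) measured 246, 301 and 277 CPM, highest in the high-fat library, where it was 1.22 times chow (1.16 to 1.29). Neuroplastin (Nptn) measured 54.1, 49.6 and 58.0 CPM, and embigin (Emb) had 5, 2 and 3 counts. None of the 2 measured partners differed 2-fold in any comparison.

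Slc16a5, on the plus strand of chromosome 11, 115462250 to 115474398, encodes MCT6, whose known cargo includes drugs such as bumetanide and which is not established as a lactate carrier. It had 808, 49 and 402 counts, or 75.1, 3.81 and 37.5 CPM. The high-fat library stood far below both others, and the DfCS-Ib library lay between. High-fat was lower than chow by 19.7-fold (14.8 to 26.9), DfCS-Ib was higher than high-fat by 9.84-fold (7.30 to 13.5), and DfCS-Ib remained lower than chow by 2.00-fold (1.78 to 2.26). On the log2 scale with a pseudocount of 5 CPM the first of these was -3.18, against -3.98 with 1 CPM. A noncoding gene model on the opposite strand, Gm11695, at 115461906 to 115463617 of the same chromosome, overlaps the first 1368 bases of Slc16a5. It had 89, 1 and 28 counts, lower in the high-fat library than in chow with a ratio of 0.00940 (0.000235 to 0.0537) that rests on 1 count, and lower with DfCS-Ib than in chow by 3.17-fold (2.05 to 5.03). Its counts amounted to 11.0%, 2.04% and 6.97% of those of Slc16a5. No source used here gives the strand setting of the counting, so reads of the pair cannot be told apart.

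Some markers of liver zones differed between the same libraries, though markers of a zone did not all move together. The 10 periportal markers summed to 12081, 6483 and 10730 CPM, mostly from Pck1 (4582, 2054 and 5076 CPM) and Arg1 (3180, 1544 and 2385 CPM). With high-fat diet, 4 of them were past 2-fold below chow and 0 above, where 2.27% and 3.47% of all genes tested were. Cyp2f2, at 963, 1178 and 1094 CPM, was 1 of 3 that lay above chow with high-fat diet. The 9 pericentral markers summed to 9444, 9171 and 12093 CPM, mostly from Cyp2e1 (6278, 6671 and 8796 CPM). With high-fat diet, 1 was past 2-fold above chow and 1 below, and 5 of the 9 lay above it. The 6 macrophage and Kupffer cell markers found in the table summed to 194, 244 and 423 CPM. Their part in the levels of the transporters was not tested, and in bulk liver fewer cells of a type and less RNA per cell cannot be told apart.

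Slc16a10, on chromosome 10, 40033532 to 40142264, encodes a carrier of aromatic amino acids that also moves thyroid hormone. It had 2097, 1445 and 2620 counts, or 195, 112 and 244 CPM. All 3 levels were apart by more than counting error, with high-fat the lowest and DfCS-Ib the highest. High-fat was lower than chow by 1.74-fold (1.62 to 1.86), and DfCS-Ib was higher than high-fat by 2.17-fold (2.04 to 2.32) and than chow by 1.25-fold (1.18 to 1.33). With the authors' RPKM the log2 ratio of DfCS-Ib to high-fat diet was 0.98, short of 2-fold, against 1.11. Its opposite-strand neighbour Gm31930 had 2, 2 and 9 counts, at most 0.344% of those of Slc16a10. Of 6 other transporters of aromatic amino acids, thyroid hormone and creatine, 5 were measured and 0 differed 2-fold in any comparison. The amino acid transporter gene Slc43a1 measured 8.46, 4.04 and 5.87 CPM, lowest in the high-fat library like Slc16a10. Slc3a2, the shared heavy chain of amino acid exchangers, measured 34.8, 29.8 and 32.2 CPM, and Slc7a8, one of the light chains, 4.18 to 5.87 CPM.

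Slc16a12, on chromosome 19, 34668401 to 34748269, encodes a creatine transporter. Its level was 48.4, 81.2 and 58.1 CPM, from 521, 1045 and 623 counts, and of the 5 measured Slc16 genes followed here it was the one highest with high-fat diet. The high-fat level was above chow by 1.68-fold (1.51 to 1.87) and the DfCS-Ib level below the high-fat one by 1.40-fold (1.27 to 1.55), neither reaching 2-fold. DfCS-Ib stayed above chow by 1.20-fold (1.07 to 1.35). Slc6a8, the sodium-dependent creatine transporter gene, lay the other way, at 10.5, 5.60 and 5.78 CPM.

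**Figure D2:**
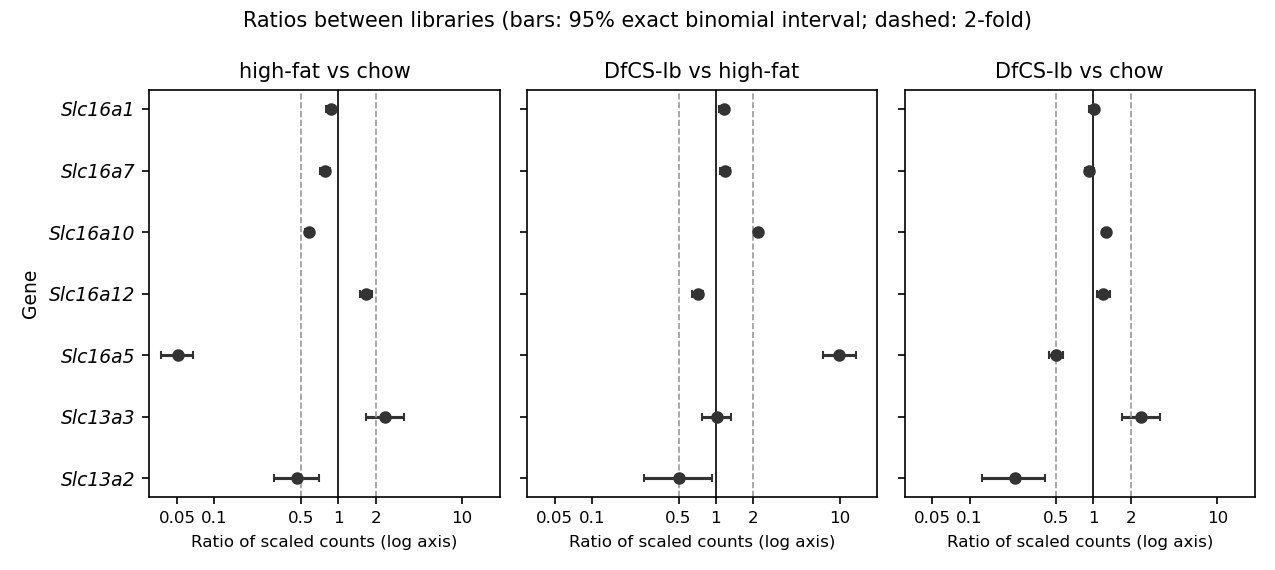
Ratios of scaled counts for the 7 measured genes, on a log axis, in 3 panels for the comparisons of the high-fat with the chow library, DfCS-Ib with the high-fat library and DfCS-Ib with chow. Bars are 95% exact binomial intervals and dashed lines mark 2-fold; Slc16a5 lies near 0.0507 in the first panel and near 9.84 in the second, and the intervals of Slc16a1 and Slc16a7 span 1 only in the third.

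Per length, the 14 Slc16 genes of the tables summed to 92.3, 65.96 and 91.5 RPKM. Slc16a13 and Slc16a11 are among the 14 but were listed at 0 on scaffolds outside the main chromosomes. Their zeros are no measure of expression, so the sums and shares are without them. Slc16a10 led in chow with 28.7 RPKM, followed by Slc16a1 with 22.9 and Slc16a5 with 21.3. In the high-fat library Slc16a1 led with 21.4 RPKM, followed by Slc16a10 with 17.7 and Slc16a12 with 15.8. With DfCS-Ib Slc16a10 led again with 36.0 RPKM, and Slc16a1 came next with 23.1. Slc16a5 made up 23.1%, 1.76% and 11.7% of the summed RPKM, the widest span of shares among these genes. Slc16a12 made up 9.52%, 24.0% and 11.6%, so that in the DfCS-Ib library Slc16a5 and Slc16a12, at 10.7 and 10.6 RPKM, were nearly level. Slc16a7 kept 8.32% to 10.4% throughout.

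**Figure D3:**
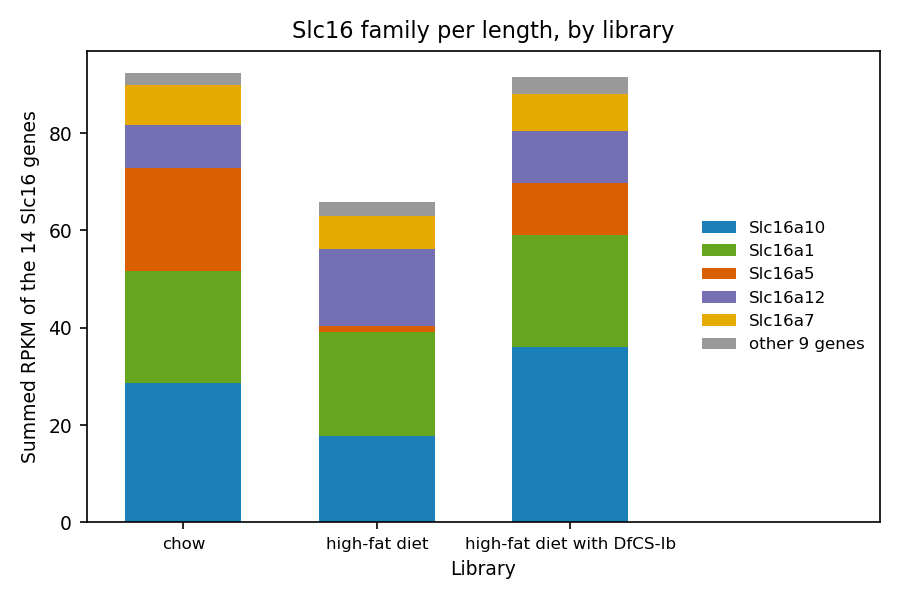
Summed RPKM of the 14 Slc16 genes in each library, stacked by gene, with the 9 genes beyond the leading 5 joined in grey. Slc16a13 and Slc16a11, among these 9, had no reading. The high-fat bar reaches 65.96 RPKM against 92.3 for chow and 91.5 for DfCS-Ib, with the Slc16a5 segment nearly absent and the Slc16a12 segment larger.

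A further 10 genes of the Slc16 and Slc13 families were examined, and 2 of them were measured. Slc16a9, a carnitine transporter gene, had 29, 46 and 72 counts and was counted as 2-fold higher with DfCS-Ib than in chow, with a ratio of 2.49 (1.60 to 3.98). Slc16a6, which has been linked to export of ketone bodies, measured 6.78, 6.53 and 5.69 CPM, and its counting intervals spanned equality in all comparisons. The lactate exporter gene of glycolytic tissues, Slc16a3, had 4, 4 and 5 counts, and Slc16a4 had 5, 7 and 8. Slc16a11 and Slc13a1 were listed at 0 in all libraries.

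Among the sodium-coupled carriers, Slc13a3 and Slc13a2 differed between libraries in opposite directions. Slc13a3, on chromosome 2, 165405295 to 165473225, had 46, 130 and 110 counts, or 4.27, 10.1 and 10.3 CPM. The 2 libraries of mice on the high-fat diet did not differ beyond counting error, with a ratio of 1.01 (0.780 to 1.32) that lay on the other side of 1 without TMM factors, at a log2 ratio of -0.07, and with the authors' RPKM, at -0.06. Both were above chow, by 2.36-fold (1.68 to 3.38) for high-fat diet and by 2.40-fold (1.69 to 3.46) for DfCS-Ib. With a pseudocount of 5 CPM, neither difference from chow reached 2-fold, at log2 ratios of 0.70 and 0.72, nor did either with the authors' RPKM, at 0.88 and 0.82.

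Slc13a2, on chromosome 11, 78397276 to 78422280, had 69, 38 and 16 counts, or 6.41, 2.95 and 1.49 CPM. It was highest in chow and lowest with DfCS-Ib. High-fat was lower than chow by 2.17-fold (1.44 to 3.32), DfCS-Ib lower than high-fat by 1.98-fold (1.08 to 3.804) and lower than chow by 4.30-fold (2.47 to 7.94). The last of these, at a log2 ratio of -1.57, was -0.93 with the authors' RPKM and -0.81 with a pseudocount of 5 CPM, both short of 2-fold. The opposite-strand gene model Slc13a2os, at 78394485 to 78405657, overlaps 8382 bases of it and had 23, 12 and 3 counts, which is 33.3%, 31.6% and 18.8% of those of Slc13a2. The 2 genes cannot be told apart without strand. Of the kidney tubule markers, Slc34a1, Slc12a1, Aqp2, Kap and Slc22a6 had no count in any library, Umod had 0, 0 and 2, and Lrp2 had 10, 22 and 9. Their part in the levels of the dicarboxylate carriers was not tested.

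Slc13a5, on chromosome 11, 72241990 to 72267032, had 5, 10 and 16 counts, or 0.465 (0.151 to 1.08), 0.777 (0.373 to 1.43) and 1.49 CPM (0.852 to 2.42). Neighbouring intervals overlapped, and only the first and last library differed beyond counting error, by 3.21-fold (1.12 to 11.2). With a mean of 0.911 CPM it was not counted. Per length, Slc13a2 led the family in chow at 1.64 RPKM beside 1.22 for Slc13a3, and Slc13a3 led in the others, at 3.09 RPKM with high-fat diet and 2.93 with DfCS-Ib. Slc13a5 stood at 0.118, 0.212 and 0.379 RPKM, so the plasma membrane citrate carrier was scarce as RNA in each library.

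Slc25a1 and Slc16a13 were listed at 0 in all 3 libraries. The tables place both on scaffolds outside the main chromosomes, whereas RefSeq on GRCm38.p6 has Slc25a1 on chromosome 16, 17925211 to 17928219, and Slc16a13 on chromosome 11, 70216789 to 70222740. The span of Slc25a1 was 3009 bases in both. The other 8 genes overlapped their RefSeq positions. Of protein-coding genes that the tables place on such scaffolds, 479 of 649 (73.8%) were listed at 0, against 5898 of 21403 (27.6%) on the main chromosomes. Slc25a11, the oxoglutarate carrier, and Slc16a11 were on the same kind of scaffold and also at 0. Values of 0 for these genes are therefore no measure of their expression, and the step between mitochondrial and cytosolic citrate has no reading here. Reads at the chromosomal copies were not analysed here.

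All genes of a list of citrate makers and users were measured. The list also holds enzymes that do not act on citrate itself, among them Acss2, Idh1, Acaca, Me1 and Fasn. With high-fat diet against chow, 4 of 13 were past 2-fold higher and 0 lower, with a median log2 ratio of 0.66. Of all genes tested, 3.47% and 2.27% were. With DfCS-Ib against the high-fat library 5 were lower and 0 higher (median -0.67), and against chow 0 differed by as much (median -0.14). Of all genes tested, 2.02% were lower and 2.46% higher with DfCS-Ib than in the high-fat library. The list was chosen with earlier results known, so nothing is read from these counts. Acly, the ATP-citrate lyase that splits exported citrate, measured 107, 257 and 87.2 CPM, 2.40-fold higher in high-fat than in chow (2.25 to 2.57). Acss2, which makes acetyl-CoA from acetate, measured 67.7, 225 and 64.1 CPM. Cytosolic isocitrate dehydrogenase, Idh1, measured 280, 613 and 386 CPM, and the fatty acid synthase gene Fasn 64.8, 512 and 69.3 CPM.

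The cytosolic aconitase gene Aco1 was higher with high-fat diet by less than 2-fold, at 191, 313 and 197 CPM. Acaca and Me1, for acetyl-CoA carboxylase and the malic enzyme of the cytosol, were counted 2-fold lower with DfCS-Ib than in the high-fat library: Acaca measured 23.4, 34.1 and 13.2 CPM and Me1 61.2, 116 and 43.3 CPM. The malate dehydrogenase genes Mdh1 and Mdh2 ran from 592 to 653 and from 140.0 to 182 CPM.

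Of 13 other mitochondrial carriers, 11 were measured, and 2 were past 2-fold lower with high-fat diet than with chow and past 2-fold higher with DfCS-Ib than with high-fat diet (medians -0.19 and 0.12). The shares of all genes tested were 2.27% and 2.46%. Slc25a47, a carrier abundant in liver, measured 956, 325 and 966 CPM, and Slc25a22, a glutamate carrier, 421, 122 and 441 CPM. In both, chow and DfCS-Ib were within 1.05-fold and the high-fat library was apart. Slc25a13, an aspartate and glutamate carrier, measured 312, 274 and 322 CPM, and Slc25a20, the carnitine and acylcarnitine carrier, 163, 149 and 162 CPM. Slc25a15, the ornithine carrier of the urea cycle, measured 713, 372 and 631 CPM, short of 2-fold. The pyruvate carrier subunit gene Mpc2 measured 119.5, 128 and 125 CPM, within counting error.

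**Figure D4:**
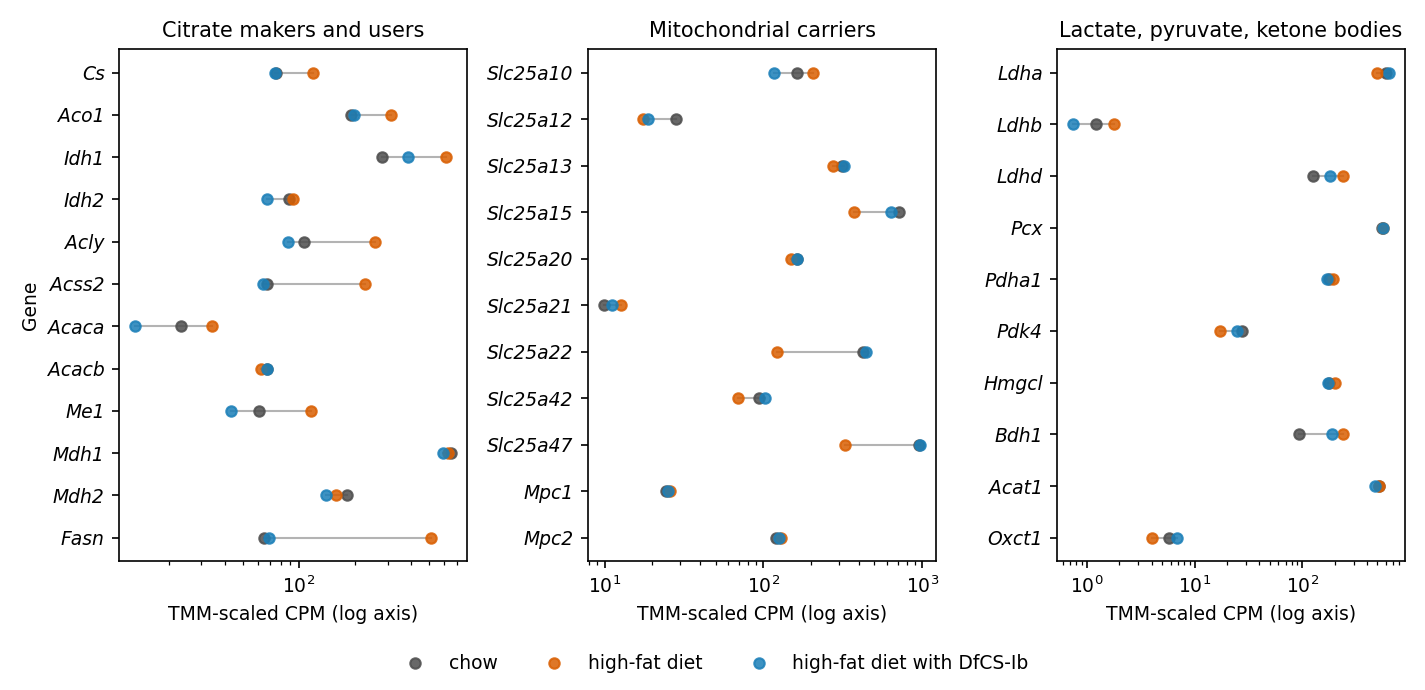
Levels of genes of 3 lists by library, in TMM-scaled CPM on log axes, with grey lines joining the libraries of a gene: citrate makers and users, other mitochondrial carriers, and enzymes of lactate, pyruvate and ketone bodies. The high-fat point is the highest for Acly, Acss2, Idh1 and Fasn and the lowest for Slc25a22 and Slc25a47.

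Enzymes that produce or consume the cargo of the lactate carriers differed both ways between libraries, some beyond counting error. Their median log2 ratio was -0.12 for DfCS-Ib against high-fat diet and 0.01 for DfCS-Ib against chow. Of 11 enzymes of lactate, pyruvate and ketone bodies, 1 was past 2-fold higher with high-fat diet than with chow, 0 were lower, and the median log2 ratio was 0.03. Of all genes tested, 3.47% were higher and 2.27% lower. The enzyme gene past 2-fold was Bdh1, the hydroxybutyrate dehydrogenase, at 93.2, 238 and 187 CPM, which was also counted higher with DfCS-Ib than in chow. Ldha, the lactate dehydrogenase gene of liver, was lowest with high-fat diet, at 602, 493 and 640 CPM, and Acat1, for the thiolase of ketone body synthesis, measured 519, 517 and 477 CPM. Pcx, for pyruvate carboxylase, measured 555, 566 and 561 CPM.

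Regulators that have been linked to these transporters, and genes that report on them, differed both ways. With high-fat diet against chow, 4 of 12 were past 2-fold higher and 2 lower, and with DfCS-Ib against the high-fat library 3 were higher and 2 lower. The shares of all genes tested were 3.47% and 2.27% in the first comparison and 2.46% and 2.02% in the second. The higher genes in the high-fat library were Cyp1a2, Srebf1, Srebf2 and Mlxipl, and the lower ones Cpt1a and Ppargc1a. Cyp1a2, a target of the aryl hydrocarbon receptor, measured 258, 858 and 480 CPM, while the receptor's own gene Ahr stood at 55.5, 58.9 and 62.45 CPM and its partner Arnt at 29.2, 31.9 and 25.7 CPM. Cyp1a2 is also one of the pericentral markers. Ppara, the fatty acid receptor, measured 421, 288 and 617 CPM, with its low point in the high-fat library like Slc16a10 and Slc16a5. Cpt1a, the gate of fatty acid entry into mitochondria, measured 945, 363 and 911 CPM, and the coactivator gene Ppargc1a 33.6, 11.1 and 30.6 CPM. Srebf1, the lipogenic regulator, measured 17.6, 204 and 27.3 CPM. Srebf2, the sterol regulator, measured 33.4, 68.0 and 40.6 CPM, and Mlxipl, which encodes the carbohydrate-responsive factor ChREBP, 105, 213 and 101 CPM. Nr1i2, the pregnane X receptor gene, measured 98.0, 92.6 and 124 CPM, and Cyp3a11, its usual readout, 6057, 3624 and 4079 CPM.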

How the data were processed

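The authors deposited for each of the 3 liver libraries a raw read count per gene and an RPKM, per the file headers, with mm10 positions, strand and length. The RPKM held by the deposited files equalled count over length and file total with a largest deviation of 0.000506% among genes of 100 counts or more. The submitters' processing notes name TopHat2 and mm10. No source used here gives the counting tool, strand setting or annotation release.

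Library totals were multiplied by TMM factors (0.976, 1.05 and 0.978; edgeR 4.0.16, R 4.3.3) to give CPM. Log2 ratios used CPM plus 1, and a gene needed a mean of 1 CPM to be tested. With 1 library per group no test was run. Ratios, 95% exact intervals and figures were made in Python 3.11.15 with scipy 1.17.1 and matplotlib 3.10.9, and the ratio script was tested on simulated data with known folds. Promoter sequences came from the RefSeq table of GRCm38.p6. The 10 genes, the 7 companion lists and the 13 marker lists were chosen with earlier results of these data known. All 10 genes were described. Companion genes were named where they were counted as 2-fold apart between a pair of libraries, with up to 4 others of a list by mean RPKM. Slc16a11, Slc13a1 and Slc25a11, all at 0, were named after their values were seen, and so was Slc7a5. A few genes of the lists are counted but not reported here by name. Alternatives were another scaling (DESeq2 1.42.0 size factors, none, or RPKM), the 50 most abundant genes left out, another pseudocount, filter, fold or set of members.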

Additional observations from a re-analysis of the deposited data

How the results depend on the processing

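No paired analysis was possible because each group had 1 library, and no library could be left out. Counts of members and their medians moved with the settings as follows. With the authors' RPKM, 0 members were 2-fold higher in the high-fat than in the chow library (median -0.22), 1 was higher with DfCS-Ib than in the high-fat library, and 0 were higher and 0 lower with DfCS-Ib than in chow. With a pseudocount of 0.5 CPM, 2 members were lower in the high-fat than in the chow library. With a pseudocount of 5 CPM or a mean of at least 10 CPM, 0 were higher there, and 0 were higher and 0 lower with DfCS-Ib than in chow. The filter of 10 CPM kept 5 members. It dropped Slc13a3 and Slc13a2, the genes counted in those places, so its counts of 0 were set by the filter. At 1.5-fold, 2 were higher and 3 lower in high-fat against chow, 1 lower in DfCS-Ib against high-fat and 2 lower in DfCS-Ib against chow, where 1370 and 1015, 942, and 402 of all 13153 genes were. With no filter the median of DfCS-Ib against chow was 0.13.

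After seeing the data, a ratio with no pseudocount was tried, which gave 2 members lower in high-fat against chow and 2 in DfCS-Ib against chow. Leaving out Slc16a5, Slc16a10 and Slc13a2, which an opposite-strand gene model with at least 10 counts overlaps, left 4 members: 0 were lower in high-fat against chow (median 0.27), 0 higher in DfCS-Ib against high-fat, and 0 lower in DfCS-Ib against chow (median 0.13). Of 147 single-gene ratios recomputed under 7 settings, 14 moved out of the counting interval and 0 of those past 2-fold changed sign; Slc13a3 in DfCS-Ib against high-fat, at a log2 ratio of 0.02, changed sign in 2. Over all genes tested, 457 were 2-fold higher and 298 lower in high-fat against chow, 230 and 164 with a pseudocount of 5 CPM, 748 and 491 with none, and 404 and 166 with RPKM. Depth limits Slc13a5 and Slc13a2, with 5 to 69 counts per library.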

Other observations

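The genes whose levels lay most like those of Slc16a5 and Slc13a2, the 2 members of widest range, were found by the distance between their log2 ratios in the high-fat against chow and DfCS-Ib against high-fat comparisons, among 7712 and 7713 candidates whose mean reached 10 CPM. With 3 libraries such likeness is a description of 2 ratios that share a library. Nearest to Slc16a5 was Cyp26b1, which encodes a retinoic acid hydroxylase and had 389, 28 and 270 counts for chow, high-fat diet and DfCS-Ib (distance 0.44). Nipal1, a magnesium transporter gene, had 407, 27 and 207 counts. The noncoding genes Ctcflos and Gm36691 had 596, 56 and 391 and 497, 45 and 286 counts. The fifth was Cyp4a14, a fatty acid omega-hydroxylase, with 6035, 674 and 4251 CPM.

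Nearest to Slc13a2 were Tppp, which encodes a tubulin-binding protein, and Adora1, an adenosine receptor gene, at distances of 0.36 each. Tppp measured 24.4, 11.7 and 9.13 CPM and Adora1 33.9, 22.9 and 13.9 CPM. Cyp2c38, Arl4d and Itga5 followed, at distances of 0.42 to 0.52. All of these were highest in chow and lowest with DfCS-Ib, as Slc13a2 was.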
